A study of Homo sapiens with 4 samples.

Results

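The H3K27ac peaks at 10 genes for transcription factors of mesenchymal transition, *PRRX1*, *PRRX2*, *TWIST1*, *TWIST2*, *SNAI1*, *SNAI2*, *ZEB1*, *ZEB2*, *RUNX1* and *RUNX2*, were examined in SK-N-BE(2)C cells, a *MYCN*-amplified human neuroblastoma line. A peak was a member if it overlapped the GENCODE gene body or the 10 kb on either side. This gave 49 of the 63699 peaks in the control list (sgCtrl) and 42 of the 50119 peaks in the list of *SNHG1*-depleted cells (sgSNHG1). The sgCtrl samples carried a non-targeting gRNA and are labelled wildtype, and the sgSNHG1 samples carried an *SNHG1* gRNA and are labelled as an *SNHG1* knockout. *SNHG1* is a long non-coding RNA that also hosts small nucleolar RNAs. In both groups, Cas9 constructs and surrogate reporters were transfected, cells were selected with puromycin, and clones were grown from single sorted cells. The sgCtrl cells were a single clone, and the labels do not name the clone behind the sgSNHG1 samples, so a difference between clones and an effect of the depletion cannot be told apart. Each group had 2 samples, whose reads were combined by the authors before peak calling. Every value below is therefore a single value per group with no spread between samples, and no p-value is given.

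The 10 factors bind DNA through different domains. *TWIST1* and *TWIST2* encode basic helix-loop-helix proteins, *SNAI1*, *SNAI2*, *ZEB1* and *ZEB2* encode zinc finger proteins that repress epithelial genes such as the E-cadherin gene *CDH1*, *PRRX1* and *PRRX2* encode paired-type homeodomain proteins of mesenchyme, and *RUNX1* and *RUNX2* encode Runt domain proteins of blood and bone. Neuroblastoma cells are known in an adrenergic and a mesenchymal state, and *PRRX1* is a known driver of the mesenchymal state. Acetylation of histone H3 at lysine 27 (H3K27ac) marks active promoters and enhancers. Of 12 listed adrenergic genes, among them *HAND2*, *ISL1*, *GATA3* and *MYCN*, 12 had an H3K27ac peak within 1 kb of a start site in both lists, against 66.8% of protein-coding genes in sgCtrl and 65.6% in sgSNHG1. Most mesenchymal factor genes were marked as well, as given below, so these counts do not separate the cell states.

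Across the whole lists, the sgSNHG1 list held 0.787 times as many peaks as the sgCtrl list and covered 0.768 times as many bases. The lowest local background was 4.89 fragments in sgCtrl and 4.66 in sgSNHG1, a ratio of 0.952. That background scales with the number and mean length of the pooled fragments, and the depth of each sample is unknown.

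The sequences under the peaks that carry the comparison are given here from GRCh38 on the plus strand, with bases of untranslated regions left out. Capitals mark the letters CAGGTG, an E-box bound by SNAI and ZEB factors, or CAGATG, an E-box bound by TWIST factors, on either strand. The summit of the highest peak of all members in both lists lay at the *ZEB2* start site (chr2:144516899-144517198), and the highest peak of *TWIST1* lay over its coding exon (chr7:19117012-19117311). The summit in the *TWIST2* intron after its start sites (chr2:238849217-238849516) and a summit 3′ of *PRRX2* (chr9:129725543-129725842) were those of peaks with more fragments in sgSNHG1 than in sgCtrl. The peak after the last *RUNX2* start site (chr6:45423554-45423798) was present in the sgSNHG1 list without a peak in the sgCtrl list. Both *ZEB1* sequences lay in an intron (chr10:31361766-31362065 and chr10:31364338-31364637) and had the lowest ratios of fragments in sgSNHG1 to sgCtrl among the shared member regions.
*ZEB2* start site: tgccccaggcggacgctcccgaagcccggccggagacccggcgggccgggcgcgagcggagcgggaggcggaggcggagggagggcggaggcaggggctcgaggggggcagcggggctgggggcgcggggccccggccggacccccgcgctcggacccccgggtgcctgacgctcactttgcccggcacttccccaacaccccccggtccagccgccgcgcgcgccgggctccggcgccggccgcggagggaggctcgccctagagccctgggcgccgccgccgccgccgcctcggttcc
*TWIST1* start site: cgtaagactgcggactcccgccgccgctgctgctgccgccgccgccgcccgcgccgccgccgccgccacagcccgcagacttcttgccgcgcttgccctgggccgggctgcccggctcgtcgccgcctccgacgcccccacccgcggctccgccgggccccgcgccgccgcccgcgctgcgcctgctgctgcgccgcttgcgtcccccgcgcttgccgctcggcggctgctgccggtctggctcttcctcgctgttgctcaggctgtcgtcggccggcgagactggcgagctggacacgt
*TWIST2* intron, 3′ of the starts: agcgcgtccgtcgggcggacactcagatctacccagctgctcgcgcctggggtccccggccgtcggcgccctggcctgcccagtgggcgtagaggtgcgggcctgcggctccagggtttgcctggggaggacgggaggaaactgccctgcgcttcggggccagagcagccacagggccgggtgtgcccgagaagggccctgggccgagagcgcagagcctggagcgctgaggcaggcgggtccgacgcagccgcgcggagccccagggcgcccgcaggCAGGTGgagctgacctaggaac
*PRRX2* 3′ flank: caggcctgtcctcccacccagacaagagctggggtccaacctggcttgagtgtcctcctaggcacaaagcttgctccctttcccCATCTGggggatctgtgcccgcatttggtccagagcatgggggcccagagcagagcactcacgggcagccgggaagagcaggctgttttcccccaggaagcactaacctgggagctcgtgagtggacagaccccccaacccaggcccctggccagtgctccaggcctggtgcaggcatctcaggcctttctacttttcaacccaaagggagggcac
*RUNX2* intron, 3′ of its last start: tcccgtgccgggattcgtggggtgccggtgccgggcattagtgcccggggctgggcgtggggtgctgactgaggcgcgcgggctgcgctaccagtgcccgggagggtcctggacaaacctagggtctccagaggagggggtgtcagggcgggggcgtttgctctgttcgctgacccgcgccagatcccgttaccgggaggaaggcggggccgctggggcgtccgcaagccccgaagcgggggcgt
*ZEB1* intron, 5′ region: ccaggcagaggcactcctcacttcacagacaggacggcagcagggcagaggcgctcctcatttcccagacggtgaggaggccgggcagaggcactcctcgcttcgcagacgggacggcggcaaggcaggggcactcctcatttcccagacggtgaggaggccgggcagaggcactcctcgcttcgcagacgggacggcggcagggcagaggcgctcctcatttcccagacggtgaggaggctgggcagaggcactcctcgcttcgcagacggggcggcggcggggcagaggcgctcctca
*ZEB1* intron, 3′ region: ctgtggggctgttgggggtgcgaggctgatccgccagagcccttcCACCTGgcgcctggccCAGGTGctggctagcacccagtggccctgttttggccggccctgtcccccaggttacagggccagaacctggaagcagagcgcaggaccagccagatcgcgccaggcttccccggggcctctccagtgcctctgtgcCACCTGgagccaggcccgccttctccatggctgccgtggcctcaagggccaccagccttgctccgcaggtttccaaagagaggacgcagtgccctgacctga

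The *ZEB2* and *TWIST1* sequences were 83.3% and 79.3% G or C and held 47 and 52 CpG pairs in 300 bases. Over the member peaks near a protein-coding start site, the median G and C content was 75.7% in sgCtrl and 73.8% in sgSNHG1, against 68.0% and 68.3% over all such peaks of the lists. The median number of CpG pairs was 39 and 33 in the member peaks, against 22 and 24. Member peaks away from start sites were close to the lists, at 63.0% and 63.8% G or C against 62.3% in both lists. The 300 bases around the summit held CAGATG in 16 of 49 sgCtrl member peaks, or 32.7%, against 17.6% of all sgCtrl peaks, and in 12 of 42 sgSNHG1 member peaks, or 28.6%, against 16.3%. CAGGTG was found in 36.7% of the sgCtrl and 40.5% of the sgSNHG1 member peaks, against 42.0% and 39.0% of all peaks. The RUNX letters TGTGGT were found in 10.2% and 9.52%, against 16.2% and 15.3%, and the GATA letters AGATAA in 0 of 49 and 1 of 42, against 2.54% and 2.88%. The homeodomain letters TAATTA were found in 1 of 49 sgCtrl and 0 of 42 sgSNHG1 member peaks, against 0.636% and 0.760%. In windows of 200 bases, CAGATG was found in 16.3% of the sgCtrl and 23.8% of the sgSNHG1 member peaks, against 11.8% and 10.8% of all peaks. Many of these windows are shared between the lists, so the lists do not give separate counts, and a match of letters is not evidence of binding.

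*PRRX1* was the single gene of the 10 with no H3K27ac peak in either list. The nearest peak to any of its 8 annotated start sites was 243 kb away in sgCtrl and 99.8 kb away in sgSNHG1. Its RefSeq promoter (GRCh38.p14, 300 bases around the start) was 53.0% G or C with 11 CpG pairs, against medians of 58.7% and 14 over 35116 RefSeq promoters. It held AGATAA, as 10.3% of all promoters did. The RefSeq table held promoters for 7 of the 10 genes. The *PRRX2* promoter, 68.3% G or C, overlapped no peak although a peak began just downstream of it. The *ZEB2* promoter, both *RUNX2* promoters and some of the *ZEB1* promoters also overlapped no peak in either list. Peaks overlapped the *TWIST2* promoter and the remaining *ZEB1* promoters in both lists, and the *RUNX1* promoter in sgCtrl alone.

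Peak number differed between the genes more than it did for the group as a whole. The 10 genes had 49 peaks in sgCtrl and 42 in sgSNHG1, a ratio of 0.857, against 0.811 for the peaks of all protein-coding genes, and the covered length was 29274 and 23373 bases, a ratio of 0.798. With the sgCtrl list reduced to the size of the sgSNHG1 list, the numbers were 38 and 42, a ratio of 1.11, so the direction rests on the size of the lists. Without *PRRX2* there were 33 and 35 peaks, a ratio of 1.06. *PRRX2*, *TWIST1*, *ZEB2* and *RUNX1* had fewer peaks in sgSNHG1, at 16 and 7, 6 and 5, 3 and 2, and 4 and 3. *SNAI1*, *ZEB1* and *RUNX2* had more, at 4 and 5, 4 and 5, and 1 and 4. At *ZEB1* the further peak came from a region with 1 peak in sgCtrl and 2 in sgSNHG1, and the covered length was 3717 bases in sgCtrl and 3045 in sgSNHG1. *TWIST2* had 9 in both lists and *SNAI2* had 2 in both.

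**Figure D1:**
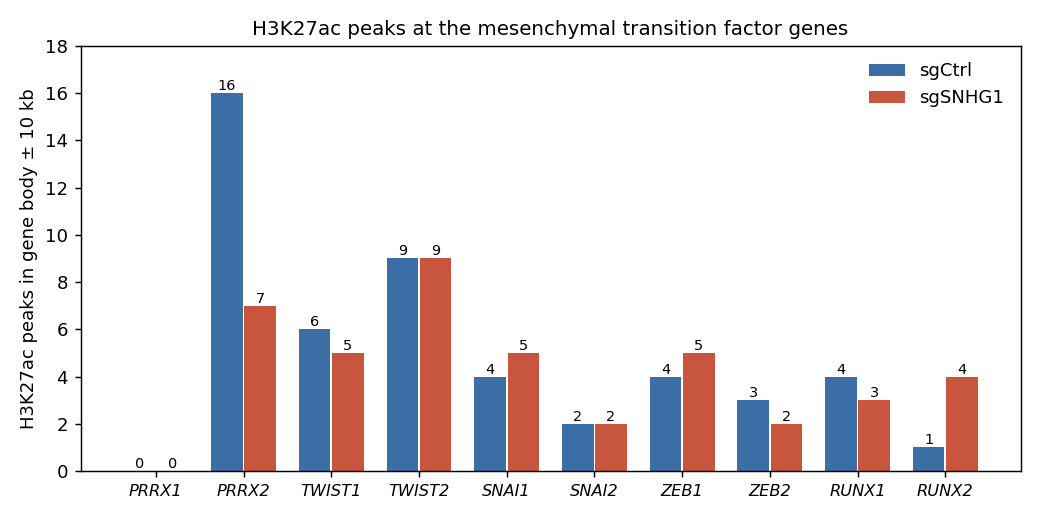
Number of H3K27ac peaks (vertical axis) overlapping the gene body plus 10 kb of each gene (horizontal axis) in the pooled sgCtrl and sgSNHG1 lists. *PRRX2* went from 16 peaks to 7, while *PRRX1* had 0 in both lists.

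Of the sgCtrl member peaks, 16 of 49, or 32.7% (95% Wilson interval, counting error only, 21.2 to 46.6%), had no overlapping sgSNHG1 peak, and the share over all sgCtrl peaks was 38.5%. The interval held that share. Near protein-coding start sites, 1 of 14 member peaks had no sgSNHG1 counterpart, against 20.3% of all such peaks, and elsewhere 15 of 35, against 47.4%. In the other direction, 10 of 42 sgSNHG1 member peaks, or 23.8% (13.5 to 38.5%), had no sgCtrl counterpart, against 20.8% of all sgSNHG1 peaks. Near start sites these were 4 of 16, against 14.2%, and elsewhere 6 of 26, against 24.8%. *PRRX2* held 9 of the 16 sgCtrl peaks with no counterpart, and the other genes 7 of 33 peaks.

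A peak within 1 kb of a start site of the gene itself was found at 8 of 10 genes in sgCtrl and at 9 of 10 in sgSNHG1, against 66.8% and 65.6% of 20046 protein-coding genes. No member lost its start site peak, where 6.98% of the protein-coding genes with such a peak in sgCtrl had none in sgSNHG1. *RUNX2* gained one, where 5.32% of the protein-coding genes with such a peak in sgSNHG1 had none in sgCtrl. That peak held 24 fragments and its edge lay 0.954 kb from the last of 11 annotated starts. When only the start of the gene record was counted, 6 of 10 genes had a peak in each list.

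**Figure D2:**
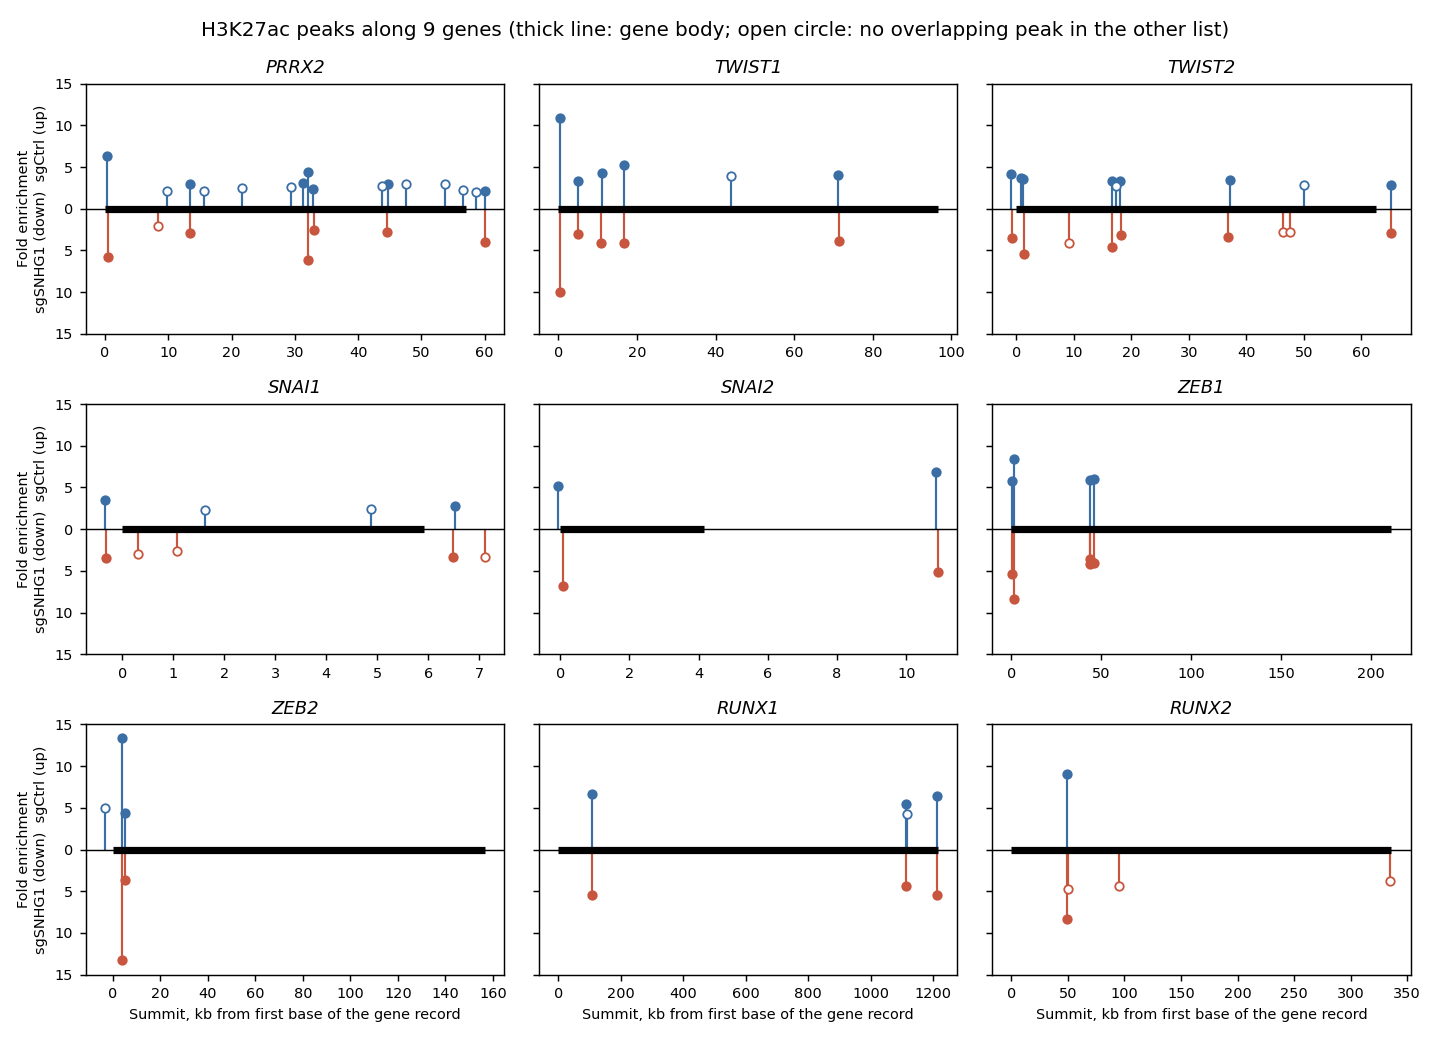
Fold enrichment of each H3K27ac peak (vertical axis, sgCtrl upwards and sgSNHG1 downwards) by the distance of its summit from the first base of the gene record in kb (horizontal axis), for the 9 genes with a peak. Thick lines are gene bodies, and open circles are peaks with no overlapping peak in the other list, of which *PRRX2* had 9 in sgCtrl.

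Fold enrichment is the height of the peak's summit over its local background, each with 1 fragment added. No input sample is among the 4 samples, and the study's methods name none. The local background may therefore hold H3K27ac signal from around the peak. The height itself, the pileup, is the number of fragments over the summit, recovered from the deposited values. The peak lists overlapped in 30 regions at the members. The fold enrichment at these was higher in sgSNHG1 in 9 and lower in 21, where it was lower in 21369 of all 38580 shared regions, with a median log2 ratio of -0.05, against -0.03 over all of them. At the 11 member regions near start sites the median was -0.11, with 3 higher and 8 lower, whereas over all 16315 such regions it was 0.02, with 8863 higher. It was over 1.5-fold higher in 1 region, against 1.23% of all shared regions, and over 1.5-fold lower in 0 regions, against 2.63%. The pileup ratio of sgSNHG1 to sgCtrl was 0.871 at the median of all shared regions and 0.975 at the median of the member regions. At the member start site regions the median log2 pileup ratio was -0.012, against -0.016 over all such regions. At the other member regions it was -0.064, against -0.307 over all such regions. The 0.871 pools both kinds of region, whose medians differed. Relative to the 0.871, the pileup ratio was over 1.5-fold higher in 4 member regions, against 8.79% of all, and over 1.5-fold lower in 2, against 5.55%. The 4 lay at *PRRX2*, *TWIST2* and the *SNAI2* start site, and the 2 in the *ZEB1* intron.

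**Figure D3:**
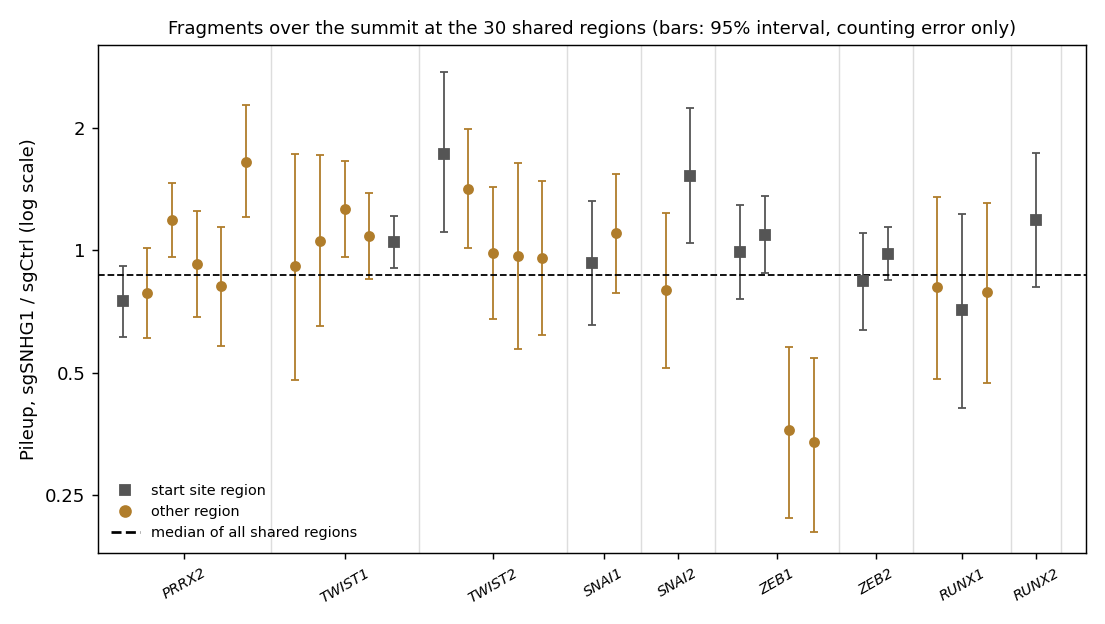
Ratio of the pileup, the fragments over the summit, in sgSNHG1 to that in sgCtrl (vertical axis, log scale) at the 30 shared regions, grouped by gene and in order of position, with start site regions as squares and others as circles. Bars are exact 95% intervals that cover counting error only. They treat fragments as independent, although duplicates were kept, and the summits of both lists can differ in place. The dashed line is the median of all shared regions, 0.871. Of the 30 intervals, 10 did not hold it. Both *ZEB1* intron regions lay wholly below it and the rest of the 10 wholly above. The share over all shared regions was not computed.

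*PRRX2*, on chromosome 9 (129665647 to 129722674, plus strand), had peaks at its start site, in its introns, in its last exons and 3′ of the gene. At the start site the fold enrichment was 6.37 in sgCtrl and 5.74 in sgSNHG1, with 236 and 177 fragments. The pileup ratio was 0.750 (0.614 to 0.915, exact 95% interval for counting error). An intronic region 32.1 kb into the gene, where the sgCtrl list had 2 peaks and the sgSNHG1 list 1, went the other way, with a fold enrichment of 4.40 in sgCtrl and 6.11 in sgSNHG1 and a pileup of 173 and 205, and it was the highest *PRRX2* peak of the sgSNHG1 list. The region 3′ of the gene printed above had a fold enrichment of 2.17 in sgCtrl and 4.02 in sgSNHG1, 1.85-fold higher, and a pileup of 66 and 109, a ratio of 1.65 (1.21 to 2.28).

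The 9 sgCtrl peaks of *PRRX2* with no sgSNHG1 counterpart had low fold enrichments, from 2.00 to 2.96, while their pileups of 68 to 109 fragments lay at the 62.3rd to 84.3rd percentile of the sgCtrl list. Of these, 1 lay within 1 kb of a start of the antisense gene *PRRX2-AS1*. The sgSNHG1 peak with no sgCtrl counterpart, 8.37 kb into the gene, had a fold enrichment of 2.10 and 77 fragments. They stood on a high local background, 24.6 to 49.9 fragments over the sgCtrl peaks of the gene, against a median of 12.9 over the list. How much of that background was H3K27ac signal near the peaks was not tested. In sgSNHG1 the background at the gene's peaks was 23.03 to 39.0 fragments. Among 1455 protein-coding genes with 10 or more sgCtrl peaks, the median ratio of peak numbers was 0.727, and 6.8% had a ratio at or below the 0.438 of *PRRX2*. In the 1 Mb on either side of the window, the number of peaks went from 222 to 159, a ratio of 0.716, and over the chromosome the ratio was 0.729. The part of the neighbourhood in the fall in *PRRX2* peaks was not tested.

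*PRRX2* was also the member with a stitched region among the highest of the sgCtrl list. When peaks more than 2.5 kb from any start site were stitched over the default distance of the ROSE tool and ranked by fold enrichment times length, 332 of 20325 sgCtrl regions and 249 of 16487 sgSNHG1 regions passed the bend of the curve that is used to call super-enhancers. The 61.7 kb region at *PRRX2*, with 16 peaks, ranked 207 in sgCtrl and passed, and in sgSNHG1 the best region there, with 3 peaks over 13.6 kb, ranked 591 and did not. The sgCtrl region left out the start site peak and reached past the outermost member peaks. Its 16 peaks were therefore not the 16 member peaks of the gene. With stitching within 5 kb, 482 of 27467 sgCtrl regions and 374 of 20707 sgSNHG1 regions passed. The best *PRRX2* region then ranked 2159 in sgCtrl and 385, just short of the cut, in sgSNHG1, so it passed in neither list. The lists differ in length, so the ranks do not measure a change. No other member passed in either list. At *ZEB1* the rank was 1224 in sgCtrl and 4002 in sgSNHG1, at *TWIST1* 1471 and 973, and at *TWIST2* 4377 and 1932.

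*TWIST1*, on chromosome 7 (19020991 to 19117636, minus strand), had the second highest start site peak of the members. The fold enrichment of this peak was 10.9 in sgCtrl and 9.93 in sgSNHG1, and its pileup was 355 and 372, a ratio of 1.05 (0.904 to 1.22). It also lay within 1 kb of a start of another annotated gene, so the mark cannot be given to *TWIST1* alone. The *TWIST1* gene record runs far past the coding exon, and the peaks 5.00 kb, 11.1 kb, 16.8 kb and 71.2 kb from its first base were in both lists. The peak at 5.00 kb lay within 1 kb of a start of a further annotated gene. At 11.1 kb the fold enrichment was 4.27 and 4.13 and the pileup 99 and 125. At 16.8 kb the fold enrichment was 5.28 and 4.08, while the pileup was 36 and 38 and the local background 6.01 and 8.56 fragments. Of the words of 75 bases under that summit, 66.4% in sgCtrl occurred at a single place in the reference chromosomes. A peak 43.95 kb from the first base, with a fold enrichment of 3.90 and 22 fragments, was in the sgCtrl list without a counterpart.

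*TWIST2*, on chromosome 2 (238848032 to 238910534, plus strand), was the member whose highest peak moved up in its list. The region over its start site had a fold enrichment of 4.17 in sgCtrl and 5.47 in sgSNHG1. Its pileup was 33 and 57, a ratio of 1.73 (1.11 to 2.74), and the local background at the highest peaks was 7.15 and 9.61 fragments. These summits did not coincide, since that of sgCtrl lay 0.87 kb before the first base of the gene and that of sgSNHG1 1.33 kb after it. Before the gene, the fold enrichment was 4.17 in sgCtrl and 3.52 in sgSNHG1, with 33 and 37 fragments. After the start, the sgCtrl list had peaks of 3.67 and 3.55, with 28 and 27 fragments, where the sgSNHG1 list had the single peak of 5.47 with 57. An intronic region 16.6 kb into the gene had a fold enrichment of 3.31 and 4.598 and a pileup of 63 and 89, a ratio of 1.41 (1.01 to 1.98). The other 3 shared regions differed little, with pileups of 61 and 60, 32 and 31, and 46 and 44. A peak 9.08 kb into the gene, with a fold enrichment of 4.11 and 30 fragments, was in the sgSNHG1 list without a counterpart, as were peaks of 2.80 and 2.74 further in. The sgCtrl list had peaks of 2.66 and 2.84 without a counterpart.

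The *SNAI1* and *SNAI2* peaks were few. *SNAI1*, on chromosome 20 (49982980 to 49988886, plus strand), had a peak just before its start in both lists, with a fold enrichment of 3.48 in sgCtrl and 3.42 in sgSNHG1 and a pileup of 71 and 66. Within the gene the lists differed in place. The sgCtrl peaks lay 1.61 kb and 4.87 kb from the first base, with fold enrichments of 2.29 and 2.47, and the sgSNHG1 peaks 0.303 kb and 1.06 kb from it, with 2.97 and 2.65. None of these 4 overlapped a peak of the other list, and they lay at the 6.33rd and 11.1th percentile of the sgCtrl list and the 23.3rd and 13.4th of the sgSNHG1 list. Beyond the gene's 3′ end a peak had a fold enrichment of 2.81 and 3.29, and sgSNHG1 had a further peak of 3.33 beside it.

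*SNAI2*, on chromosome 8 (48917598 to 48921740, minus strand), had 1 peak at its start site and 1 in its 3′ flank, in both lists. At the start site the fold enrichment was 5.12 in sgCtrl and 6.85 in sgSNHG1, and the pileup was 48 and 73, a ratio of 1.52 (1.04 to 2.24). The start site peak also lay within 1 kb of a start of another annotated gene, so the mark cannot be given to *SNAI2* alone. In the flank, 10.9 kb from the first base, the fold enrichment was 6.79 and 5.18 and the pileup 50 and 40, a ratio of 0.800 (0.514 to 1.24). The order of the peaks by fold enrichment was thus reversed between the lists. The stitched region that holds the flank peak had 9 peaks over 46.0 kb in sgCtrl, most of them outside the gene's window, and ranked 371, while in sgSNHG1 the peak stood alone and ranked 6606. With stitching within 5 kb the peak stood alone in both lists.

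*ZEB1*, on chromosome 10 (31318495 to 31529814, plus strand), held start site peaks that were close between the lists and intronic peaks that were not. Peaks lay within 1 kb of 18 of its 21 annotated start sites in both lists, and also near starts of the antisense gene *ZEB1-AS1*. The higher start site peak had a fold enrichment of 8.37 in sgCtrl and 8.40 in sgSNHG1 and a pileup of 165 and 180. The lower had 5.82 and 5.36, with 116 and 115 fragments. In the intron, 43.4 kb and 46.0 kb into the gene, the pileup was 69 in sgCtrl and 25 in sgSNHG1 at the 5′ region, and 71 and 24 at the 3′ region. The ratios were 0.362 (0.220 to 0.580) and 0.338 (0.203 to 0.544), both under the 0.871 of all shared regions. The fold enrichment was 5.93 and 4.19 at the 5′ region and 6.05 and 4.05 at the 3′ region, and the local background was 10.8 and 10.9 fragments in sgCtrl and 5.20 and 5.17 in sgSNHG1. At the 5′ region the sgSNHG1 list had 2 peaks, and the one over the sgCtrl summit had a fold enrichment of 3.53 with 21 fragments.

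The *ZEB1* intron regions held recurring sequence. In the 5′ sequence printed above, words of 20 bases recurred within the same 300 bases, 85 of 281 words in the sgCtrl window, and at least 1 word recurred in 2 of 49 sgCtrl member peaks and in 7.36% of all sgCtrl peaks. Of its words of 31 bases, 57.4% occurred at a single place in the reference chromosomes, and of those in the 3′ region 52.2%. Of words of 75 bases, the read length, all of those in the 5′ region and 89.8% of those in the 3′ region did. A start of the gene record *SPTLC1P1* lay within 1 kb of the 5′ region, and a start of another annotated gene within 1 kb of the 3′ region. How the reads of such repeats were placed is not given in the sources used here, and its part in the fall was not tested.

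*ZEB2*, on chromosome 2 (144364364 to 144521057, minus strand), had the highest peak of the 10 genes in both lists. Its fold enrichment was 13.4 in sgCtrl and 13.2 in sgSNHG1, at the 98.6th and 98.1st percentile of the lists, and its pileup was 364 and 357, a ratio of 0.981 (0.845 to 1.14). The peak also lay within 1 kb of a start of the antisense gene *ZEB2-AS1*, so the mark cannot be given to either gene alone. A lower start site peak beside it had a fold enrichment of 4.36 and 3.69, with 118 and 99 fragments. Peaks lay within 1 kb of 19 of the 46 annotated starts in both lists. A peak in the 5′ flank, at the starts of *LINC01412* and *LINC02993*, had a fold enrichment of 5.04 with 38 fragments in sgCtrl and no counterpart in sgSNHG1, and it had the highest fold enrichment of the 16 sgCtrl member peaks without a counterpart.

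*RUNX1*, on chromosome 21 (34787801 to 36004667, minus strand), was the member whose highest peak moved down most in its list. Its gene record covers 1217 kb, since it includes transcripts that start far upstream. Peaks lay near the starts of the proximal promoter alone, and the nearest peak to the distal promoter near base 35049302 was 159 kb away in both lists. At the proximal promoter the fold enrichment was 5.43 in sgCtrl and 4.34 in sgSNHG1, with 35 and 25 fragments. A peak 0.203 kb from a further start of the proximal group, with a fold enrichment of 4.28 and 28 fragments, was in the sgCtrl list alone, so that 3 of 16 annotated starts were marked in sgCtrl and 2 in sgSNHG1. In an exon near the 3′ end of the gene the fold enrichment was 6.45 and 5.48, with 37 and 30 fragments. The upstream peak at 107 kb from the first base had 6.62 and 5.48, with 38 and 30 fragments, and 27.9% of its words of 75 bases occurred at a single place in the reference. All 3 pileup ratios, 0.811, 0.714 and 0.789, had intervals that held the 0.871 of all shared regions.

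*RUNX2*, on chromosome 6 (45328157 to 45664349, plus strand), had 1 peak in sgCtrl and 4 in sgSNHG1. The shared peak, with a fold enrichment of 9.04 and 8.37 and a pileup of 54 and 64, lay within 1 kb of a start of *SUPT3H*, a gene for a transcription coactivator subunit, and not of *RUNX2*. The 3 further sgSNHG1 peaks held few fragments. A peak beside the shared one had a fold enrichment of 4.71 and 35 fragments, a peak 0.954 kb from the last annotated *RUNX2* start had 4.42 and 24, and a peak in an exon near the 3′ end had 3.71 and 20. The nearest peak to the first annotated start was 49.3 kb away in sgCtrl and 49.2 kb away in sgSNHG1. In the 1 Mb on either side, the lists held 6 and 3 peaks.

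The place of each gene's highest fold enrichment within its own list moved down at 8 of 9 genes and up at 1, with a median change of -2.37 percentile points. Over 15058 protein-coding genes with a peak in both lists the median change was -0.68 points and 59.1% moved down. *TWIST2* moved from the 60.1st to the 77.5th percentile, a change of 17.4 points, and *RUNX1* from the 87.0th to the 77.7th, a change of -9.32 points. These were the genes of the 9 that kept their direction under all 7 other ways of computing the change. The highest *RUNX1* peak in sgCtrl was the upstream one, with 38 fragments. In sgSNHG1 it was level with the 3′ exon peak, each with 30 fragments. Of the upstream peak's words of 75 bases, 27.9% occurred at a single place in the reference, and its pileup interval held the 0.871 of all shared regions. The change was -5.12 points at *SNAI1*, -3.54 at *PRRX2*, -2.96 at *RUNX2*, -2.37 at *TWIST1*, -1.99 at *SNAI2*, -1.55 at *ZEB1* and -0.49 at *ZEB2*. Each of these turned in direction under at least 1 other way. The *RUNX2* change is that of a peak near a start of *SUPT3H* and not of *RUNX2*. With the percentile of the pileup in place of the fold enrichment, the median change over the 9 genes was 0.25 points, and with lists of equal size it was 0.32 points, so the direction of the group as a whole rests on the measure.

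**Figure D4:**
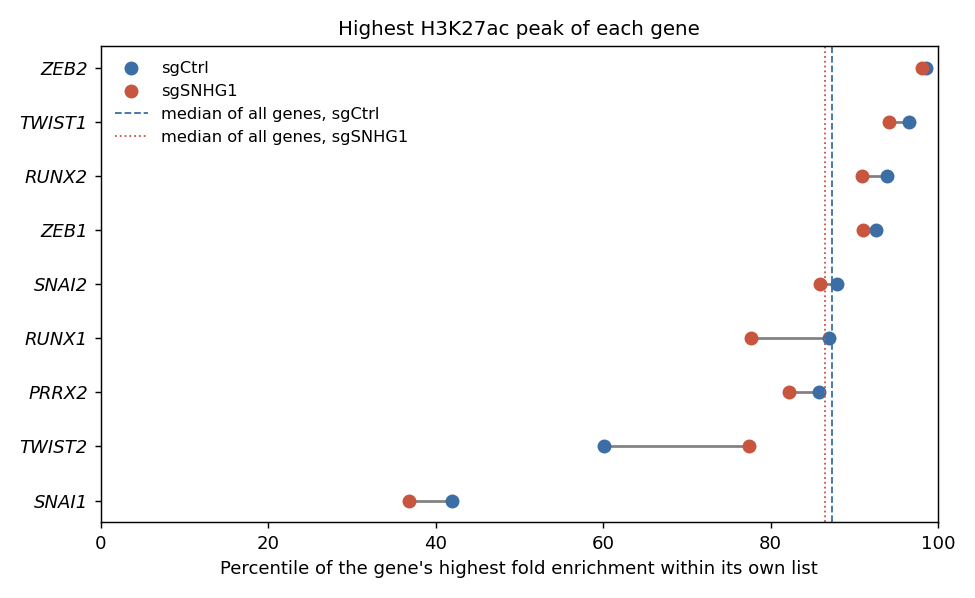
Percentile of each gene's highest fold enrichment among all peaks of its own list (horizontal axis) for the 9 genes with a peak, in sgCtrl and sgSNHG1. The *RUNX2* values are those of a peak near a start of *SUPT3H*. Vertical lines are the medians of all protein-coding genes with a peak in both lists, and the longest shifts are those of *TWIST2*, from 60.1 to 77.5, and *RUNX1*, from 87.0 to 77.7.

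The order of the 9 genes by their highest fold enrichment was *ZEB2*, *TWIST1*, *RUNX2*, *ZEB1*, *SNAI2*, *RUNX1*, *PRRX2*, *TWIST2* and *SNAI1* in sgCtrl. The highest *RUNX2* peak of both lists lay near a start of *SUPT3H* and not of *RUNX2*. In sgSNHG1, *ZEB1* passed *RUNX2*, though they were almost level at 8.40 and 8.37, and *PRRX2* passed *RUNX1*. The sgSNHG1 fold enrichments of *TWIST2* and *RUNX1*, 5.47 and 5.48, were almost level as well. With 1 value per group, the spread over samples behind these orders is unknown.

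Family members and partners of the factors were set beside them. Of 9 such genes, 9 had a peak in sgCtrl and 7 in sgSNHG1, and their peaks went from 87 to 68, a ratio of 0.782. Of 20046 protein-coding genes, 15900 had a peak in sgCtrl, 15514 in sgSNHG1 and 15058 in both, and the ratio of their peaks was 0.811. *RUNX3*, the third Runt domain gene, had 8 peaks in sgCtrl, the highest with a fold enrichment of 4.21 and at least 1 of them at a start site, and 0 in sgSNHG1. *SNAI3*, a further SNAI family gene, had 1 and 0. *CBFB*, the non-DNA-binding partner of the RUNX proteins, had 7 and 5 peaks and a highest fold enrichment of 9.57 and 8.63. The E protein genes *TCF12* and *TCF4*, whose proteins pair with TWIST factors, kept high peaks, at 12.55 and 12.3 and at 8.23 and 8.05. *CTBP1* and *CTBP2*, corepressors of ZEB factors, moved in opposite directions, by 8.34 and -5.49 percentile points. The median change over the 7 genes with a peak in both lists was -2.20 points. Here and in the lists below, a gene's highest peak could lie anywhere in its window. Starts of other genes near such peaks were not looked for.

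Of 10 effector genes of the transition, 7 had a peak in sgCtrl and 6 in sgSNHG1, and their peaks went from 26 to 15, a ratio of 0.577. Over all 20046 protein-coding genes, 15900 and 15514 had a peak and the ratio of peaks was 0.811. *CDH1*, which encodes E-cadherin, had a highest fold enrichment of 5.03 in sgCtrl and 8.72 in sgSNHG1, a change of 16.7 percentile points. Whether these peaks lay at *CDH1* or at a neighbouring gene was not examined. *CDH2*, which encodes N-cadherin, had 10.3 and 9.66, and *VIM*, which encodes vimentin, 7.77 and 8.35. *CDH11*, a mesenchymal cadherin gene, moved by -11.7 points, from 5.47 to 4.69. *ITGA5*, an integrin gene, had 2 peaks in sgCtrl and 0 in sgSNHG1, and *MMP2*, a matrix metalloproteinase gene, 7 and 2. *FN1*, *SPARC* and *POSTN*, which encode matrix proteins, had no peak in either list. The median change was -1.99 points over 6 genes, and -1.14 points over the 12 adrenergic genes, whose peaks went from 79 to 67, a ratio of 0.848.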

How the data were processed

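H3K27ac ChIP-seq was measured in 2 sgCtrl and 2 sgSNHG1 samples. Per the study's methods and the submitters' processing notes, the authors trimmed adaptors (cutadapt) and mapped the read pairs with BWA to GRCh38. The reads of both samples of a group were merged, and MACS2 was run at a p-value of 1e-06 with all duplicates kept. The deposited lists give each peak's fold enrichment (a ratio to the local background), the −log10 of its p-value and q-value, its summit and an integer score. The q-value and score were not used.

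The pileup and local background were recovered from the fold enrichment and p-value as a Poisson test, and 99.9% of the peaks of each list gave whole fragments within 0.01. Percentiles are ranks of fold enrichment within a list. Genes came from GENCODE 44, promoters from RefSeq. Peaks sharing 1 base counted as shared. The peaks to be named were the highest of each gene, those within 1 kb of its starts and its highest unshared peak, and in the other gene lists the genes of highest and lowest percentile change. Further peaks and genes were named after their values were seen. The ROSE modifications of the study are not given in the sources used here, so super-enhancer ranks are approximate. Intervals are at 95%. Those of pileup ratios treat fragments as independent, although duplicates were kept, so they may be too narrow. The work used Python 3.11.15 with scipy 1.17.1, pandas 2.3.3, numpy 2.4.6 and matplotlib 3.10.9, and was tested on simulated data, with overlaps checked against bedtools 2.31.1. The members, gene lists and alternatives were chosen with earlier results of these data known.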

Additional observations from a re-analysis of the deposited data

How the results depend on the processing

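No paired analysis was possible because the peak lists used here pool both replicates of a group. Leaving out a replicate was not run for the same reason, and values per replicate were not analysed here. The ratio of member peak numbers turned from 0.857 to 1.11 with lists of equal size. The median change in percentile was 0.32 points with lists of equal size, 1.26 with covered bases and 0.25 with pileup, and -1.55 in the gene body alone and -0.19 with −log10 p. Changes of single genes turned with lists of equal size at *PRRX2* (0.32), *SNAI1* (1.76), *SNAI2* (1.30) and *ZEB1* (0.46), in the gene body alone at *SNAI1* (12.3) and *SNAI2* (9.47), and with −log10 p at the same genes (1.04 and 4.47). They turned with covered bases at *TWIST1* (1.26), *SNAI1* (13.9), *SNAI2* (6.02), *ZEB1* (0.56), *ZEB2* (0.0624) and *RUNX2* (30.7), and with pileup at *SNAI1* (7.497), *SNAI2* (25.5), *ZEB1* (0.25) and *RUNX2* (13.96). The median log2 ratio at shared regions was 0.16 for pileup after subtracting the median of all shared regions, and, for fold enrichment, -0.0837, -0.11 and -0.0306 with a −log10 p of at least 10, equal lists and 50 kb flanks. An overlap of 50% of both peaks left 53.1% of the sgCtrl and 45.2% of the sgSNHG1 member peaks without a counterpart, and a distance of 1 kb left 11.9% of the latter. The shares over all peaks were not computed at these settings, so these values cannot be read as particular to the members. Stitching within 5 kb left 0 members with a super-enhancer in sgCtrl. In 200-base windows, CAGATG was in 16.3% of the sgCtrl member peaks (11.8% of all), and CAGGTG in 26.2% and AGATAA in 0% of the sgSNHG1 member peaks (29.8% and 1.57% of all). Leaving out each gene in turn gave peak number ratios of 0.792 to 1.06, the highest without *PRRX2*, length ratios of 0.744 to 0.929, shares of 21.2 to 35.6% and 18.4 to 27.03% without a counterpart, median changes of -2.66 to -2.18 and median log2 ratios of -0.11 to -0.0385. The cause of these changes was not tested. Of 180 alternatives in all, 142 left the value unturned and not moved, 14 moved it and 24 turned it. For the percentile changes of single genes only the direction was judged, so a change in size did not count as a move. Leaving out *PRRX1*, which had no peak, could not change any value, and these alternatives are among the 142.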
